A study of Drosophila melanogaster with 16 samples.

Results

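Glutathione S-transferases (GSTs) join the tripeptide glutathione to reactive, mostly foreign or oxidised, molecules, which makes those molecules more soluble and easier to remove. The cytosolic enzymes of insects fall into the classes Delta, Epsilon, Omega, Sigma, Theta and Zeta. Delta and Epsilon are expanded in insects and are best known for the breakdown of insecticides and plant toxins, Omega enzymes reduce oxidised thiols, Sigma handles products of lipid peroxidation, and Zeta includes the isomerase that acts in tyrosine breakdown. Not every member serves detoxification: GstE14, known as Noppera-bo, is needed in the prothoracic gland for the use of cholesterol in ecdysone synthesis.

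The family was taken as every gene with a symbol made of Gst, a class letter (D, E, O, S, T or Z) and a number. The rule found 33 members among the 12984 genes measured, with 28 of 9731 genes in the brain–ring gland complex (BRGC) and 32 of 12509 in the body, and 27 members in both. There were 10 members of class D, 13 of class E, 3 of class O, 1 of class S (GstS1), 4 of class T and 2 of class Z. GstE14 was measured in the BRGC only, and GstD2, GstD4, GstD6, GstD7 and GstD8 in the body only. GstE4 was not analysed here.

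RNA was sequenced from wandering Drosophila melanogaster larvae in the last larval instar, as BRGCs, which hold the brain and the hormone-making ring gland, and as bodies without BRGC, mouth hooks and salivary glands. In each tissue 4 libraries of dfr14 homozygotes were compared with 4 control libraries of the w[1118] strain, 16 libraries in all, and none of the larvae received a treatment. The dfr14 allele is a CRISPR/Cas9 deletion of 14 bp just behind the first stop codon of the POU factor gene drifter (dfr, also vvl), which removes Dfr-L, the longer protein made by reading through that stop. Per the paper's methods, the sequenced dfr14 homozygotes came from a line outcrossed to a balancer stock. Repeated outcrossing to w[1118] is described there as a further step. The allele was studied as a single line whose larvae pupate late, so genotype, other differences between the lines and developmental timing cannot be told apart. In bulk tissue, fewer cells of a type and less RNA per cell cannot be told apart either.

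The BRGC libraries held between 19423852 and 30118366 reads in genes and the body libraries between 17050491 and 27360849. Levels are CPM, the reads of a gene per 1e6 reads of the scaled library size, with the mean ± SD of 4 libraries, and library numbers only follow the column order of each table. Neuronal and glial markers were present in every BRGC library, with summed levels of 1257 to 2425 CPM and 824 to 1043 CPM. The 8 fat body markers summed to 8236 CPM in control BRGC library 2 and to 359 to 1258 CPM in the other BRGC libraries. Control body library 4 lacked reads for 1685 genes (32 to 189 in the others), and its 14 male-dependent transcripts summed to 0.779 CPM against 62.7 to 657 CPM elsewhere. The 10 salivary gland markers reached 13790 CPM in control body library 3 and 1399 CPM in library 4, and were at most 11.3 CPM in the other body libraries.

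Summed over the family, the libraries of the genotypes overlapped in both tissues. The members summed to 1933 ± 114.7 CPM in control BRGCs and 1961 ± 165 CPM in dfr14 BRGCs, and to 1781 ± 345 CPM in control bodies and 1955 ± 417 CPM in dfr14 bodies. A few members held most of it. Per kb of exon, GstD1, the best known Delta enzyme and a common readout of oxidative stress, was highest in control BRGCs at 414 CPM per kb, followed by GstO3 at 195, GstZ2 at 164, GstS1 at 143 and GstD9 at 99.1. In control bodies GstD1 again led with 430 CPM per kb, before GstO3 at 294, GstE12 at 159, GstS1 at 103 and GstT4 at 99.5. GstD5, at 0.233 CPM per kb in control BRGCs and 0.870 in control bodies, was the lowest member of the BRGC, and in the body only GstE2, at 0.313, and GstD8, at 0.803, were lower.

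In the BRGC 12 of the 28 members (42.9%) differed between the genotypes at an adjusted p under 0.05 by limma's moderated test, against a background of 16% of all genes (10.1% higher and 5.9% lower in dfr14). Of these, 9 rose: GstE6, GstE7, GstE8, GstE9, GstE14, GstD5, GstT1, GstT3 and GstZ1. GstD3, GstD9 and GstE5 fell. The genotypes did not overlap for 13 of 28 members, where the background was 22.8%. The median log2 fold change was 0.23 over the members and −0.02 over all genes tested. By class, 5 of 13 E members rose and 1 fell, 1 of 5 D members rose and 2 fell, 2 of 4 T members and 1 of 2 Z members rose, and none of the 3 O members nor GstS1 passed the test (of these only GstS1 had an unadjusted p under 0.05). Of the 12 hemocyte markers 3 rose in the same libraries (NimC1, He and crq) and 8 had a log2 fold change above 0. Their sums were 523 to 1285 CPM in controls and 1014 to 1318 CPM in dfr14. Of the 10 muscle markers 2 rose (sls and wupA) and 9 had a log2 fold change above 0, and their sums of 849 to 1002 CPM in controls and 1004 to 1159 CPM in dfr14 did not overlap. Of the 7 tracheal markers 2 rose (serp and Gasp) and 5 had a log2 fold change above 0, with sums of 1071 to 1234 CPM and 1177 to 1466 CPM. Of the 5 Malpighian tubule markers 1 rose (Cyp6a14) and 2 had a log2 fold change above 0. Of the 3 salivary gland markers 1 rose (sage), the only 1 above 0. No marker of these lists was at 0 in all libraries, and their part in the GST values was not tested.

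**Figure D1:**
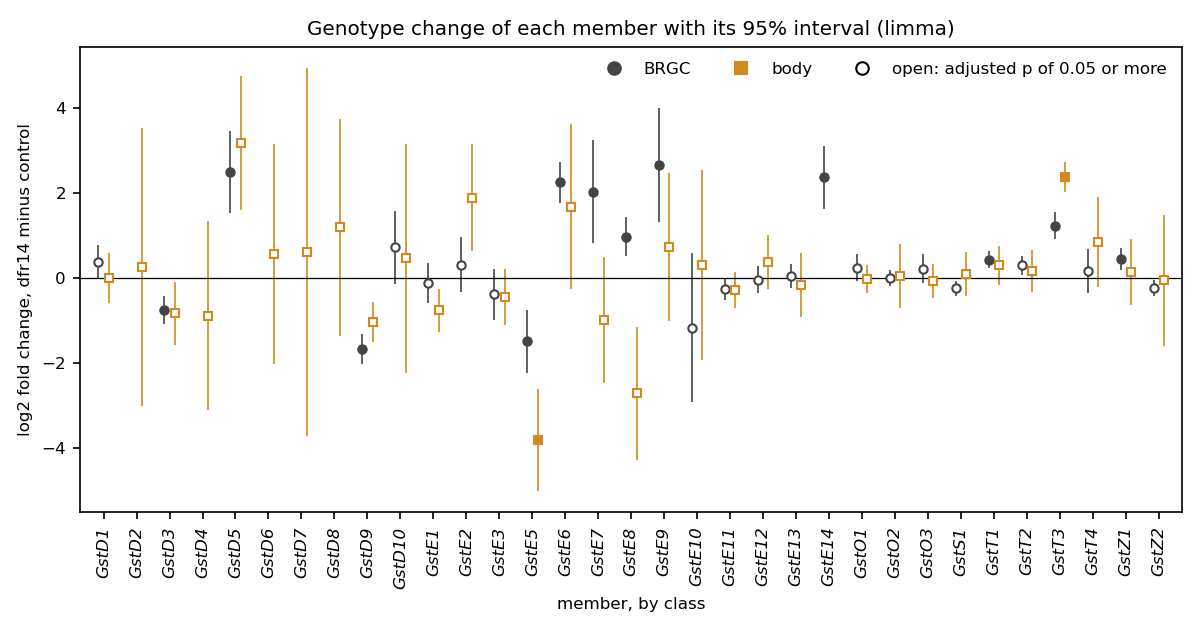
Log2 fold change (dfr14 minus control) of each member in the BRGC (circles) and the body (squares), with the 95% interval of limma; filled symbols have an adjusted p under 0.05. In the BRGC 12 members are filled, and in the body only GstT3 and GstE5; the body intervals of GstD2, GstD6, GstD7, GstD8 and GstD10 are wider than 5 log2 units.

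The Epsilon cluster lies on chromosome 2R of BDGP6, from 18396638 to 18409835, and its last 4 genes in map order, GstE6 to GstE9, all rose in the BRGC, next to GstE5, which fell. GstE6 and GstE7 are single-exon genes known to conjugate isothiocyanates. GstE6 was at 5.04, 8.01, 4.24 and 5.31 CPM in the control BRGC libraries and at 22.8, 23.9, 37.1 and 24.4 CPM in dfr14. Its groups lay far apart, with a log2 fold change of 2.25 (SE 0.22, adjusted p = 0.000147 by limma). GstE8 was at 4.12, 5.6, 2.73 and 4.46 CPM in controls and at 8.17, 7.88, 8.60 and 7.92 CPM in dfr14. The dfr14 libraries were close together and all above the controls (log2 fold change 0.98, SE 0.20, adjusted p = 0.0115 by limma).

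GstE7 and GstE9 rested on a control group with 1 high library. GstE9 was at 0.539, 3.41, 0.707 and 0.243 CPM in controls and at 5.11, 5.6, 4.74 and 6.28 CPM in dfr14, a log2 fold change of 2.66 (SE 0.60, adjusted p = 0.0161 by limma). GstE7 was at 0.919, 4.34, 0.518 and 0.689 CPM in controls and at 4.32, 4.72, 6.04 and 4.40 CPM in dfr14, so that control library 2 reached into the dfr14 range (log2 fold change 2.03, SE 0.54, adjusted p = 0.0327 by limma). Library 2 is also the one with the high fat body markers, whose part in these values was not tested. Without it the log2 fold change was 2.66 for GstE7 (adjusted p = 0.000274) and 3.33 for GstE9 (adjusted p = 0.000315) by limma. The call of GstE7 was lost on leaving out any 1 of the other 7 BRGC libraries, with adjusted p from 0.0585 to 0.0977 by limma, and that of GstE9 without dfr14 library 4 (adjusted p = 0.0512).

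GstE5, at 18404605 to 18405338 on 2R, went the other way. It was at 2.69, 5.22, 2.68 and 3.6 CPM in control BRGCs and at 0.696, 1.5, 1.76 and 0.984 CPM in dfr14 BRGCs. No dfr14 library reached the lowest control, and the log2 fold change was −1.49 (SE 0.33, adjusted p = 0.0153 by limma), which became 0.0508 without control library 4. The remaining genes of the cluster, GstE1, GstE2, GstE3 and GstE10, did not pass the test in the BRGC. GstE1, the most abundant of them in the BRGC, was at 41.1 ± 12.7 CPM in controls and 36.4 ± 1.36 CPM in dfr14.

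Outside the cluster, GstE14 was at 0.824, 0.927, 0.330 and 0.810 CPM in control BRGCs and at 4.18, 5.24, 3.75 and 2.72 CPM in dfr14 BRGCs, from 7 to 26 reads per control library and 58 to 101 per dfr14 library. Every dfr14 library was above every control, with a log2 fold change of 2.37 (SE 0.34, adjusted p = 0.00145 by limma). Of the 7 prothoracic gland markers, 6 enzymes of ecdysone synthesis and the zinc finger factor ouib, 4 enzymes fell in the same libraries (sad, spok, dib and nvd). None of the 7 passed as higher, but ouib had higher values in dfr14 (5.27 and 7.53 CPM, log2 fold change 0.51, adjusted p = 0.0644 by limma). The sum over the 7 was 415 to 505 CPM in controls and 232 to 309 CPM in dfr14. GstE14 thus moved in the direction opposite to these 4 enzymes. GstE11, GstE12 and GstE13, which lie apart from the cluster on 2R, had log2 fold changes between −0.26 and 0.05 and did not pass the test. GstE12, the most abundant E member of the BRGC, was at 139, 117, 89.7 and 107 CPM in controls and at 115.08, 126, 92.4 and 105 CPM in dfr14, which overlapped.

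**Figure D2:**
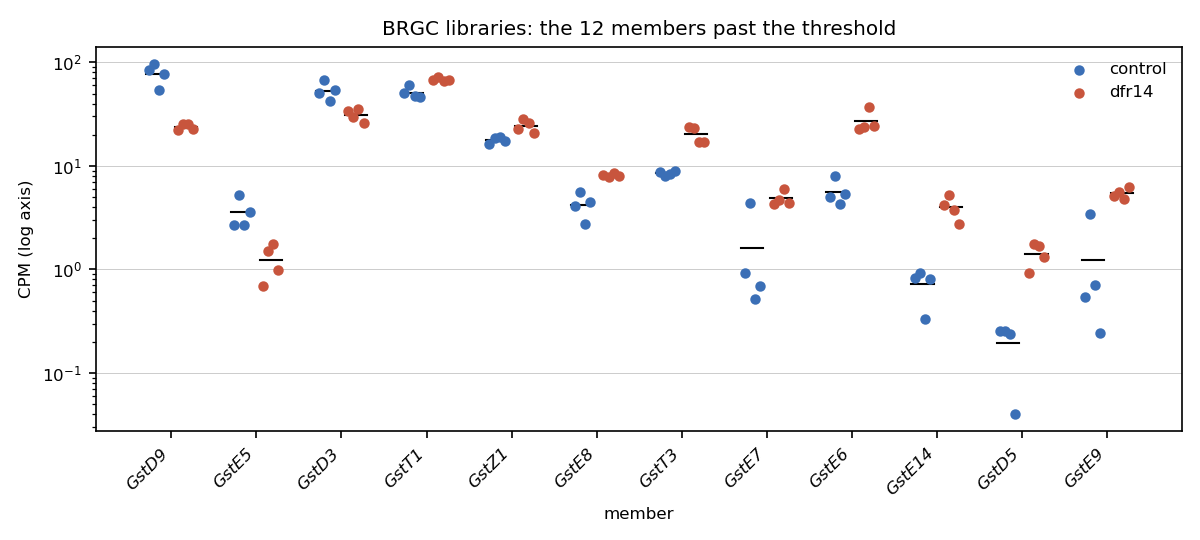
CPM (log axis) of the 12 members past the threshold in the BRGC, with 1 point per library (4 control, 4 dfr14) and a line at each group mean, ordered by log2 fold change. Only GstE7 overlaps between the genotypes, through its control library at 4.34 CPM.

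The 10 Delta genes form 1 cluster of 16.04 kb on 3R, from 12364776 to 12380815, and its members did not move together. GstD9, at 12366163 to 12367564, was at 85.0, 95.4, 53.7 and 77.4 CPM in control BRGCs and at 22.4, 25.1, 25.3 and 22.6 CPM in dfr14. All dfr14 libraries lay well below the controls, which differed more among themselves (log2 fold change −1.67, SE 0.16, adjusted p = 0.000137 by limma). GstD3 was at 50.5, 67.6, 42.0 and 53.6 CPM in controls and at 33.8, 29.7, 35.5 and 26.1 CPM in dfr14, a smaller fall without overlap (log2 fold change −0.76, SE 0.15, adjusted p = 0.00900 by limma).

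GstD5 rose from a level near the detection limit. It was at 0.254, 0.253, 0.236 and 0.0405 CPM in control BRGCs, or 8, 6, 5 and 1 reads, and at 0.928, 1.76, 1.68 and 1.31 CPM in dfr14, or 20, 34, 44 and 28 reads. The log2 fold change was 2.50 (SE 0.44, adjusted p = 0.00477 by limma). GstD1, between GstD9 and GstD2 on the map, was at 413, 349, 291 and 343 CPM in controls and at 532, 573, 323 and 423 CPM in dfr14. The groups overlapped and it did not pass (log2 fold change 0.38, 95% interval −0.02 to 0.78). GstD10, at 0.821 ± 0.455 and 1.29 ± 0.212 CPM, did not pass either.

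The 4 Theta members all had a log2 fold change above 0 in the BRGC, and 2 passed. GstT3, at 20467455 to 20469796 on X, was at 8.75, 8.01, 8.38 and 8.95 CPM in controls and at 24.0, 23.4, 17.2 and 17.2 CPM in dfr14. The control libraries were nearly equal and all far below dfr14 (log2 fold change 1.24, SE 0.14, adjusted p = 0.000360 by limma). GstT1, the most abundant Theta gene of the BRGC, was at 50.5, 60.2, 47.1 and 46.4 CPM in controls and at 68.2, 72.3, 65.7 and 68.3 CPM in dfr14, a small rise without overlap (log2 fold change 0.43, SE 0.09, adjusted p = 0.0124 by limma). GstT2, which starts 107 bases further on 2R, was at 26.5, 24.9, 25.8 and 21.6 CPM in controls and at 27.7, 29.2, 33.2 and 31.8 CPM in dfr14. Its libraries did not overlap, but it did not pass (log2 fold change 0.30, adjusted p = 0.0657 by limma).

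The Zeta genes GstZ1 and GstZ2 are neighbours on 3R and had log2 fold changes of opposite sign. GstZ1 was at 16.3, 18.7, 19.2 and 17.2 CPM in control BRGCs and at 22.8, 28.1, 26.2 and 20.8 CPM in dfr14 (log2 fold change 0.45, SE 0.11, adjusted p = 0.0283 by limma). This call was lost without any of 4 libraries, and when only library size was scaled (adjusted p = 0.0624). GstZ2 was at 354, 370, 428 and 371 CPM in controls and at 336, 289, 348 and 325 CPM in dfr14, without overlap but not past the threshold (log2 fold change −0.23, adjusted p = 0.106 by limma).

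No Omega or Sigma member passed the test in the BRGC. GstO3, the most abundant Omega gene, was at 170, 199, 181 and 137 CPM in control BRGCs and at 210, 250, 154 and 191 CPM in dfr14. The groups overlapped (log2 fold change 0.22, 95% interval −0.13 to 0.57). GstO2 had a log2 fold change with a 95% interval of −0.19 to 0.19, and GstO1 one of −0.07 to 0.56. GstS1, which acts on the lipid peroxidation product 4-hydroxynonenal, was at 295, 333, 326 and 345 CPM in controls and at 251, 297, 267 and 286 CPM in dfr14, which overlapped by 1 library (log2 fold change −0.24, adjusted p = 0.0723 by limma). When only library size was scaled, GstS1 and GstZ2 passed as lower (adjusted p = 0.0204 and 0.0323).

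In the body 2 of the 32 members passed the test (GstT3 higher, GstE5 lower), against a background of 1.41% of all genes (1.09% higher and 0.328% lower). GstT3 was at 12.8, 10.9, 12.8 and 15.99 CPM in control bodies and at 62.9, 63.1, 66.3 and 80.5 CPM in dfr14. Both groups were tight and lay 5.2-fold apart in their means (log2 fold change 2.38, SE 0.15, adjusted p = 0.000672 by limma). The call stayed under each of the alternative settings run and without any single library.

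GstE5 was at 6.61, 5.47, 17.5 and 10.9 CPM in control bodies and at 0.745, 0.925, 0.583 and 0.228 CPM in dfr14 bodies, or 136 to 396 reads against 4 to 19. The means differed 16.3-fold and the groups did not approach each other (log2 fold change −3.81, SE 0.52, adjusted p = 0.0167 by limma). The adjusted p rose to 0.153 with precision weights and to between 0.0546 and 0.0617 without control library 1, dfr14 library 1 or dfr14 library 3, with log2 fold changes of −3.82 to −3.96.

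The genotypes did not overlap for 7 of the 32 members in the body, with a background of 9.15%, and 5 of these did not pass the test. GstD9 was at 27.1, 31.0, 42.5 and 28.8 CPM in controls and at 19.4, 17.0, 12.9 and 13.3 CPM in dfr14 (log2 fold change −1.04, adjusted p = 0.0652 by limma). GstD5 was at 0.291, 0.115, 1.32 and 1.19 CPM in controls and at 4.27, 8.28, 6.30 and 4.21 CPM in dfr14 (log2 fold change 3.19, adjusted p = 0.0855). These had the directions of the BRGC. GstD5 passed without control body library 4 (adjusted p = 0.0484), and with a covariate for the male-dependent transcripts both did (GstD9 0.0363, GstD5 0.0165). GstD9 also passed when only library size was scaled (adjusted p = 0.0117) and with median-ratio factors (0.0267).

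GstE8 was at 10.9, 9.31, 21.8 and 18.8 CPM in control bodies and at 5.49, 3.36, 1.71 and 0.569 CPM in dfr14 (log2 fold change −2.71, SE 0.67, adjusted p = 0.126 by limma). GstE1 was at 40.9, 45.2, 63.3 and 63.3 CPM in controls and at 36.4, 38.03, 24.7 and 26.0 CPM in dfr14 (log2 fold change −0.76, adjusted p = 0.181). GstE2 was at 0.194, 0.154, 0.353 and 0.412 CPM in controls and at 1.08, 2.24, 0.473 and 1.88 CPM in dfr14 (log2 fold change 1.89, adjusted p = 0.176). For GstE1 and GstE2 the nearest control and dfr14 libraries were close, and for GstE8 they were 9.31 and 5.49 CPM.

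**Figure D3:**
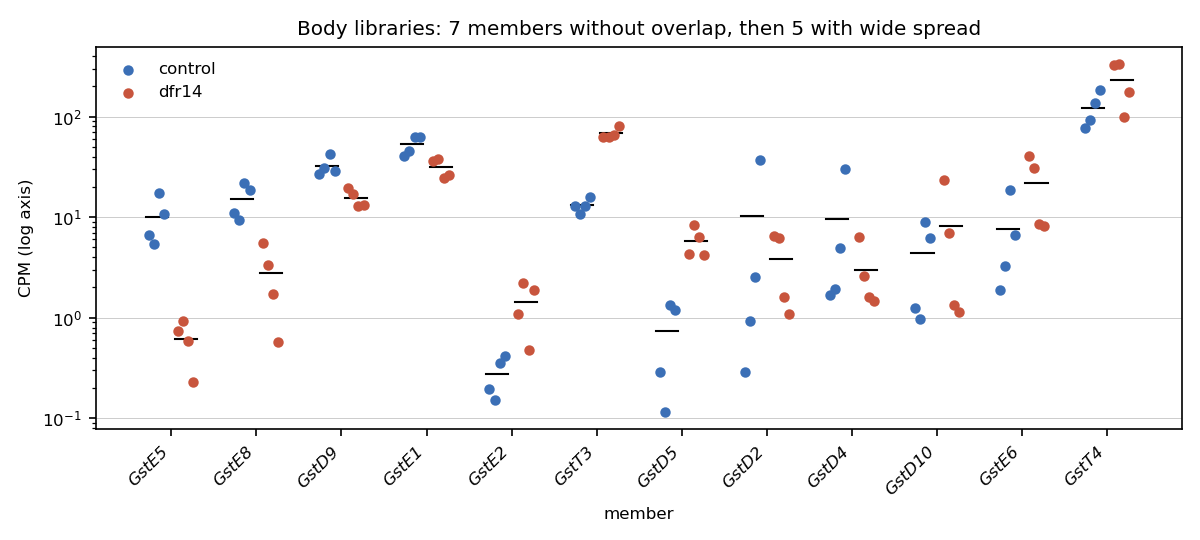
CPM (log axis) per body library (4 control, 4 dfr14) with a line at each group mean, for the 7 members without overlap ordered by log2 fold change and then 5 with a wide spread. GstT3 and GstE5 stand clear, whereas GstD2 and GstD4 each have 1 control library (37.3 and 29.9 CPM) far above the rest.

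Spread between libraries was large in the body. Among control bodies the highest library of GstD2 was 128 times the lowest (0.291, 0.924, 2.56 and 37.3 CPM), with a mean of 10.3 CPM against 3.83 CPM in dfr14 and a log2 fold change of 0.27. Without control library 4 the control mean was 1.26 CPM, below that of dfr14, and the log2 fold change 1.57 (adjusted p = 0.321 by limma). GstD4, also high in that library, had a log2 fold change of −0.89 with it and −0.01 without it. GstD7 was at 0.0972, 0.115, 8.34 and 0.825 CPM in controls and at 12.7, 3.99, 0.255 and 0 CPM in dfr14, a log2 fold change of 0.62, or 1.78 without control library 3 (adjusted p = 0.814 by limma). GstE6 was at 1.89, 3.23, 18.7 and 6.69 CPM in controls and at 40.4, 30.8, 8.48 and 8.19 CPM in dfr14 (log2 fold change 1.68, 95% interval −0.27 to 3.63), and GstT4 at 77.4, 91.5, 135 and 182 CPM in controls and 326, 330, 97.9 and 176 CPM in dfr14.

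For several members, among them GstD10, GstE6, GstE9, GstE10 and GstT4, dfr14 body libraries 1 and 2 were above libraries 3 and 4. In control bodies GstD10, GstE6, GstE9, GstE10 and GstT4 were each lower in libraries 1 and 2 than in libraries 3 and 4. All 8 Malpighian tubule markers had a log2 fold change above 0, 2 of them an unadjusted p under 0.05 by limma and none an adjusted one. Their sums split like these members, at 633 and 495 CPM in dfr14 libraries 1 and 2 and 199 and 213 CPM in libraries 3 and 4. In control libraries 1 to 4 they were 110, 111, 225 and 242 CPM. The 12 hemocyte markers, again all above 0, with 9 at an unadjusted p under 0.05 and none past the threshold, summed to 2885, 4057, 1263 and 1311 CPM in dfr14 and 580 to 1084 CPM in controls. Over all genes of the body, 1684 of 12509 had an unadjusted p under 0.05 by limma. The 8 fat body markers, of which 6 were above 0, 2 had an unadjusted p under 0.05 and none passed, split in that way too, at 150778 and 108149 CPM in dfr14 libraries 1 and 2, 81665 and 79233 CPM in libraries 3 and 4, and 52295 to 91416 CPM in controls. The 13 midgut markers summed to 19192, 9119, 3910 and 7728 CPM in dfr14 libraries 1 to 4 and 5658 to 10756 CPM in controls. The 7 tracheal markers summed to 991, 805, 661 and 533 CPM in dfr14, and to 668, 677, 1037 and 1180 CPM in control libraries 1 to 4. In those control libraries the fat body markers summed to 68961, 52295, 90724 and 91416 CPM. The hemocyte markers summed there to 687, 580, 1084 and 959 CPM, and the midgut markers to 5658, 7297, 10756 and 6626 CPM. The 14 male-dependent transcripts were lower in dfr14 libraries 1 and 2 (149 and 62.7 CPM) than in libraries 3 and 4 (250 and 375 CPM). In control libraries 1 to 4 they were at 423, 657, 205 and 0.779 CPM. No marker of these lists was at 0 in all libraries. Except for the fit with the male-dependent covariate, their part in the GST values was not tested. The TMM factors that scale library size were 0.798, 0.868, 1.004 and 1.031 in dfr14 libraries 1 to 4. In control libraries 1 to 4 they were 1.159, 1.224, 0.985 and 0.998. The part of these factors in the splits of either genotype was not tested.

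The most abundant member of each class did not pass the test in the body. GstD1 was at 254, 346, 446 and 405 CPM in controls and at 505, 370, 251 and 348 CPM in dfr14 (log2 fold change 0.01, 95% interval −0.58 to 0.60). GstO3 was at 246, 190, 281 and 318 CPM in controls and at 213, 276, 259 and 227 CPM in dfr14, GstS1 at 261, 302, 204 and 169 CPM and at 238, 187, 257 and 307 CPM. GstE12 was at 172, 168, 298 and 251 CPM in controls and at 399, 322, 212 and 226 CPM in dfr14, and GstZ1 at 15.1, 13.4, 26.3 and 26.7 CPM and at 28.5, 28.9, 16.02 and 16.2 CPM. The genotypes overlapped for each of these. The median log2 fold change was 0.12 over the members and 0.12 over all genes tested.

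Summed by class, the 4 Theta members of the body went from 210 ± 65.8 CPM in controls (153 to 291) to 391 ± 123 CPM in dfr14 (246 to 497), from 11.8% to 20.03% of the family's reads, with overlapping libraries. The largest part of this sum was GstT4, which did not pass (means of 121 and 233 CPM, adjusted p = 0.494 by limma). GstT3, which passed, had means of 13.1 and 68.2 CPM. In the BRGC the Theta sum went from 106 ± 13.7 CPM (94.6 to 125) to 143 ± 3.68 CPM (139 to 147), without overlap. The Epsilon sum was 297 ± 51.5 and 315 ± 20.6 CPM in the BRGC and 478 ± 157 and 482 ± 166 CPM in the body, and its libraries overlapped between the genotypes in both tissues. In the BRGC, GstE5 and its neighbours GstE6 to GstE9 moved in opposite directions, but their control means were at most 5.65 CPM each. The most abundant Epsilon members there were GstE12 (113 CPM in controls) and GstE11 (62.1 CPM), and neither passed the test.

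**Figure D4:**
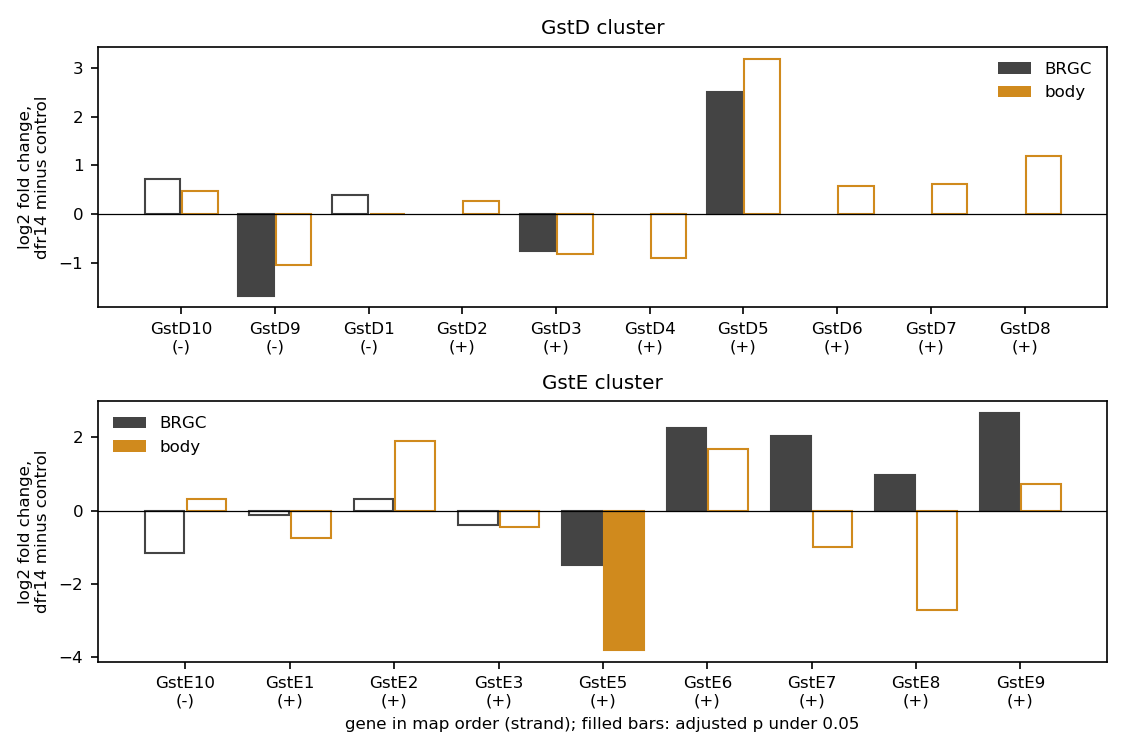
Log2 fold change (dfr14 minus control) of the genes of the GstD and GstE clusters in map order, with the strand in brackets; dark bars are the BRGC, orange bars the body, and filled bars have an adjusted p under 0.05. GstE5 is below 0 in both tissues beside GstE6 to GstE9, which are all above 0 in the BRGC, and GstE7 and GstE8 are below 0 in the body.

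Of the 27 members in both tables, 18 had log2 fold changes of the same sign in both tissues, and GstT3 and GstE5 passed in both. The difference of the changes, body minus BRGC, passed for 2 of 27 members, with a background of 1.29% of the 9256 genes in both tables (0.648% with the higher change in the body and 0.637% with the lower). GstT3 rose more in the body than in the BRGC (2.38 against 1.24 on the log2 scale, difference 1.14, SE 0.21, adjusted p = 0.0182 by limma), and this call was lost when only library size was scaled (difference 0.99, adjusted p = 0.0643). GstE8 was higher in dfr14 BRGCs and had lower values in dfr14 bodies (0.98 and −2.71, difference −3.69, SE 0.70, adjusted p = 0.0182 by limma). As a level, GstE8 was higher in the body than in the BRGC in controls (15.2 ± 6.02 and 4.23 ± 1.18 CPM) and higher in the BRGC than in the body in dfr14 (8.14 ± 0.332 and 2.78 ± 2.14 CPM).

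GstE5 and GstE7, neighbours of GstE8, had differences of −2.32 (adjusted p = 0.0929) and −3.02 (adjusted p = 0.126 by limma), and did not pass. The difference for GstE7 passed without control BRGC library 2 (−3.65, adjusted p = 0.0288), and that for GstE5 when only library size was scaled (adjusted p = 0.0408). For GstD5 the changes were 2.50 and 3.19, with a 95% interval of the difference from −1.03 to 2.41, and for GstD9 −1.67 and −1.04, with an interval from 0.07 to 1.198 (adjusted p = 0.296 by limma).

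Members also differed in where they were expressed. The tissues were normalised in separate tables, so their levels are compared as a description without a test. In control larvae 7 of 27 members were higher in every BRGC library than in any body library, 10 were higher in the body, and 10 overlapped, whereas over all genes 55.2% were higher in the BRGC and 17.1% in the body. GstZ2 was at 381 ± 32.4 CPM in BRGCs and 10.1 ± 1.85 CPM in bodies, a ratio of 37.7, while its neighbour GstZ1 was at 17.9 ± 1.32 and 20.4 ± 7.15 CPM. GstE2 was at 6.75 ± 2.03 CPM in BRGCs and 0.278 ± 0.124 CPM in bodies, a ratio of 24.3, while GstE3 beside it was 15.3 times higher in the body (61.4 ± 20.1 against 4.01 ± 1.57 CPM).

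The other members higher in the BRGC were GstD3, GstD9, GstE11, GstE13 and GstT2, with ratios of 1.44 to 3.09. Those higher in the body besides GstE3 were GstE5, GstE7, GstE8, GstE9, GstE10, GstE12, GstO1, GstT3 and GstT4. GstE7 had the highest ratio there (26.3), which was 60.04 without control BRGC library 2. The ratio of GstE9 was 6.85, or 16.9 without that library and 4.08 without control body library 3, and that of GstE10 was 11.2, or 33.1 without control BRGC library 1 and 7.4 without control body library 3. GstT4 was at 121 ± 47.1 CPM in bodies and 22.0 ± 7.65 CPM in BRGCs. In dfr14 larvae 8 members were higher in the BRGC and 8 in the body. All 7 BRGC members and 7 of the 10 body members kept their side, GstE5 and GstE9 came to overlap, and GstE8 changed sides.

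**Figure D5:**
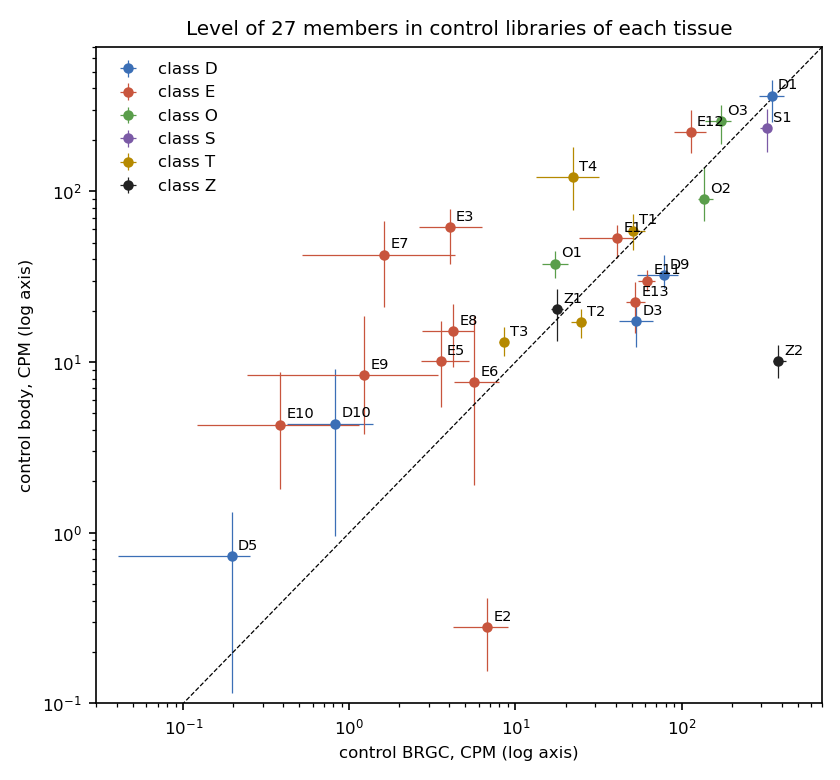
Mean CPM of the 27 shared members in control BRGCs (x, log axis) and control bodies (y, log axis), labelled by class letter and number; lines span the 4 libraries of each tissue and the dashed line marks equal levels. GstZ2 (37.7 times) and GstE2 (24.3 times) lie far on the BRGC side, and GstE7 and GstE3 far on the body side.

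Related genes were read beside the family. As a background, 3019 of 9731 genes in the BRGC and 1684 of 12509 in the body had an unadjusted p under 0.05 by limma. Of the genes listed for glutathione synthesis and recycling, 0 of 10 passed limma's test in the BRGC and 0 of 12 in the body. At an unadjusted p under 0.05 there were 4 and 1. The list also holds Gnmt, a gene of neither process. None of 6 genes of xenobiotic sensing (cnc, which encodes CncC, Keap1 and others) passed in either tissue, with 2 in each at an unadjusted p under 0.05. Of the antioxidant enzymes 0 of 10 and 0 of 12 passed, with 3 and 2 at an unadjusted p under 0.05. Of 5 GST-related genes outside the symbol rule in the BRGC (gfzf, Mgstl, Clic, eEF1gamma and AIMP3), only Mgstl, the microsomal glutathione transferase, passed. Mgstl rose from 15.3 ± 1.17 to 34.7 ± 1.60 CPM (log2 fold change 1.18, SE 0.09, adjusted p = 2.7e-05 by limma). In the body 0 of 6 passed, with 1 at an unadjusted p under 0.05.

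Genes with Ugt symbols, most of them UDP-glycosyltransferases that attach sugars to similar substrates, moved in both directions. In the BRGC 3 of 7 rose and 1 fell, and in the body 1 of 15 fell. The gene named only Ugt, which is not of this kind, is counted among the 7 and the 15 and did not pass in either tissue. Ugt86Di fell in both tissues, from 73.4 ± 9.17 to 13.2 ± 1.78 CPM in the BRGC (adjusted p = 1.7e-06 by limma) and from 21.4 ± 5.25 to 5.52 ± 1.59 CPM in the body (adjusted p = 0.0175). In the BRGC Ugt86Da rose from 44.3 ± 0.762 to 70.8 ± 5.43 CPM, Ugt58Fa from 24.5 ± 4.56 to 37.3 ± 3.81 CPM and Ugt36Ba from 0.0978 ± 0.0452 to 1.51 ± 0.774 CPM.

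The Delta and Epsilon genes are close paralogs, and reads shared between copies may have been split or dropped in counting, so their separate levels are uncertain to that extent. In the annotation GstE9 shares 40 exon bases with imd on the other strand, GstE1 and GstE10 share 20 with each other, and GstT2 shares 223 with CG12926, GstO2 61 with se, GstE12 33 with CG3894 and GstE13 6 with CG18659. The libraries were stranded, but whether counting used the strand is not given in the sources used here.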

How the data were processed

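Per the study's methods, poly(A)-selected stranded libraries were made from 4 biological replicates per group, and BRGCs and bodies came from different larvae. Per the labels, the authors used Trim Galore for trimming, STAR for alignment and featureCounts for gene counts on Ensembl BDGP6; genes without counts were removed per tissue. The deposited values are log2 CPM after TMM scaling by the authors with edgeR (prior count 2). Genotype was taken from the sample titles, because the genotype tag follows the tissue. The tables also hold 16 repeat columns, not used here, and group means.

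Whole reads were recovered from the deposited log2 values (100.0% within 0.001 of a whole number) and gave CPM, depth and alternatives. The deposited log2 values were tested by tissue with limma 3.58.1 (trended variance, R 4.3.3) across all genes with Benjamini-Hochberg adjustment and a threshold of 0.05. The difference between the tissues was fitted over the 9256 shared genes as an interaction contrast of the 4 groups. The procedure was run on simulated data with known changes. Of 2-fold changes it recovered 93 of 100 in the BRGC, 45 of 100 in the body and 33 of 76 for the tissue difference. Of 4-fold changes it recovered 99 of 100, 84 of 100 and 65 of 73. Smaller changes are thus more easily missed in the body than in the BRGC. Sequences were not used. Coordinates and lengths came from the Ensembl 115 annotation of BDGP6, which named 33 of 33 members alike.

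Alternatives were scaling by median-ratio factors or by library size only, keeping genes with at least 10 reads in 4 or more libraries and 15 reads in total, a prior count of 0.5, precision weights (voom), a covariate of male-dependent transcripts, and each library left out. Members and lists were chosen with earlier results of these data known. Per-library values are given for members past a threshold, those without overlap, and the most abundant of each class; up to 4 genes are named per related list, by smallest p.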

Additional observations from a re-analysis of the deposited data

Results flagged for a closer look

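The values of each member were searched for a library far from the other 3 of its group, by the gap to the nearest library over the whole range of the group. This found 9 of 120 groups, where independent, normally distributed values would give about 1 in 20, or 6. CPM at a few reads, and members measured in the same libraries, need not meet these conditions, so the 6 is only a rough guide. In the BRGC, GstD5 was low in control library 4 (0.0405 CPM, with 0.236 to 0.254 CPM in the others), GstE6 was high in dfr14 library 3 (37.1 against 22.8 to 24.4 CPM), and GstE10 was high in control library 1 (1.14 against 0.122 to 0.141 CPM, or 36 reads against 3 in each of the others). GstE7 (4.34 against 0.518 to 0.919 CPM) and GstE9 (3.41 against 0.243 to 0.707 CPM) were both high in control library 2, the library with fat body markers at 8236 CPM.

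In the body, GstD2 (37.3 against 0.291 to 2.56 CPM) and GstD4 (29.9 against 1.70 to 4.90 CPM) were both high in control library 4, the library nearly without male-dependent transcripts, and GstD7 was high in control library 3 (8.34 against 0.0972 to 0.825 CPM). GstE3 was high in dfr14 library 1 (61.2 against 36.0 to 39.9 CPM).

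For GstE8 and GstT3 the genotype change differed between the tissues by the test of the difference itself, by −3.69 and 1.14 on the log2 scale (body minus BRGC; adjusted p = 0.0182 for each by limma).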

How the results depend on the processing

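No member's call changed direction under any alternative run. Of the BRGC calls, 12 in number, each of the settings on all libraries gave 12 or, with library size alone, 13 (8 higher, 5 lower), and leaving out 1 library gave 9 to 12. In the body the 2 calls became 4 with library size alone (1 higher, 3 lower), 4 with the male-dependent covariate (2 higher, 2 lower), 1 with precision weights and 1 to 3 with 1 library left out. The 1 related gene called in the body became 0 with precision weights, 2 with the covariate and 0 to 2 with 1 library left out. The tissue difference stayed at 2 members in every setting but 1, giving 3 without control BRGC library 2, but with library size alone GstE5 took the place of GstT3. Leaving out each control library, an alternative chosen after seeing the data, gave 7 to 8 members higher in the BRGC and 10 to 12 in the body. No paired analysis was possible because the columns carry no replicate numbers.

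Over all genes, calls in the body numbered 177 (136 higher, 41 lower), 62 with precision weights, 617 with the covariate (359 and 258), and 72 to 245 with 1 library left out, the highest without control library 4 (143 and 102). In the BRGC they numbered 1554 and, with 1 library left out, 901 to 1613; for the tissue difference 119, 58 with precision weights, and 55 to 206. With library size alone the median of all genes moved by −0.24 (log2) in the body and the calls split 113 higher and 81 lower there, 782 and 988 in the BRGC (980 and 574 as reported), and 25 and 87 for the tissue difference (60 and 59 as reported; 41 and 78 with median-ratio factors). Members at a few reads per library limit the precision of GstD5, GstE10 and GstE2.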
